A study of Mus musculus with 10 samples.

Results

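The genes for the proteins of the cytosolic ribosome were examined in RNA sequencing of the mouse pancreas. The members were chosen by symbol: rows of the raw count table with an Rpl, Rps, Rplp or Rpsa name, without pseudogenes, S6 kinases and paralogs whose names end in l or in l and a digit. Of 24421 genes in the table, 77 met this rule, 46 of the large and 31 of the small subunit. Each library came from a piece of the pancreas tail of 1 female mouse aged 12 weeks. Per the labels, every mouse carried Ptf1aCreER, a tamoxifen-activated Cre recombinase expressed from Ptf1a, which is active in the enzyme-secreting acinar cells, together with the nuclear reporter nTnG. Insr, which encodes the insulin receptor, had 0 floxed alleles (alleles that Cre can delete) in the 3 Insr WT libraries (Insrw/w), 1 in the 3 Insr Het libraries (Insrw/f) and 2 in the 4 Insr KO libraries (Insrf/f). The Cre acts in acinar cells and the tissue piece holds all cell types, so Insr of the other cells is still counted. A protocol label counts more WT mice than the 3 used here, and the remainder was not analysed here. Libraries are named by genotype and mouse number, as in WT-2404.

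The ribosome makes all cellular protein, and each of its subunits joins ribosomal RNA with a fixed set of proteins, most of them present in a single copy. The acinar cell, which secretes digestive enzymes in bulk, is among the most active protein makers of the body. Most ribosomal protein mRNAs begin with a stretch of pyrimidines, called the TOP motif, through which the kinase mTOR, which acts downstream of the insulin receptor, sets how strongly they are translated. That control acts on translation, whereas the counts used here measure mRNA.

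Reading of the libraries starts from their makeup. They held 11718559 to 19024351 gene counts. WT-2404 stood apart: a list of 31 acinar digestive enzyme genes took 16.4% of its gene counts, against 60.9% and 74.2% in the other WT libraries, 74.0% to 78.9% among Het and 65.2% to 80.4% among KO libraries. Its scaling factor by the TMM method (trimmed mean of M-values) was 3.54, and those of the other libraries lay between 0.596 and 1.56. Acinar markers were thus abundant in every library, with Dnase1 the 1 gene of that list at 0 counts in all. The summed level of 11 fibroblast marker genes was 1552 to 5565 counts-per-million (CPM, of the TMM-scaled library) in WT, 593 to 1222 in Het and 523 to 1394 in KO libraries. That of 11 myeloid marker genes was 471 to 1827, 249 to 380 and 144 to 534 CPM, with overlap between WT and KO. For 11 ductal marker genes the sum was 1092 to 1642, 568 to 944 and 573 to 938 CPM, with WT above the others. No gene of these 3 lists was at 0 in all libraries. Not every list had its highest sums in WT. Islet markers summed to 489 to 5769 CPM in WT, 5011 to 9972 in Het and 3641 to 8613 in KO libraries. Adipocyte markers summed to 38.0 to 51.1, 74.4 to 93.3 and 50.9 to 95.3 CPM. Endothelial markers overlapped, at 109 to 172, 144 to 165 and 101 to 205 CPM. Lymphoid markers were lower outside WT on average, at 23.2 to 46.2, 9.65 to 10.4 and 3.34 to 29.4 CPM. On the same scale the acinar enzyme genes themselves had median log2 fold changes of 1.18 for KO and 1.24 for Het against WT, with 30 of 30 genes tested higher in each. Insr itself stood at 21.0, 27.8 and 40.5 CPM in the WT, 43.2, 44.2 and 28.2 in the Het and 22.7, 33.3, 35.5 and 34.7 in the KO libraries. These ranges overlapped, so the level of Insr in the whole piece did not separate the genotype labels. Counts of a whole gene also include transcripts that lack a deleted exon.

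Ribosomal protein mRNA was higher in both Het and KO libraries than in WT libraries, in both subunits and by nearly the same amount, after TMM scaling. The median log2 fold change over the 76 members tested was 0.87 for KO against WT and likewise 0.87 for Het against WT, beside 0.03 and 0.0046 over all 13688 genes tested. KO and Het libraries hardly differed, with a median of -0.02 beside 0.0079. The standard error of a well counted member in that comparison had a median of 0.28. By library size alone the direction flipped, with member medians of -0.18 for KO and -0.28 for Het against WT, while the median of all genes moved to -1.17 and -1.36. Relative to the median of all genes, the members were then higher by 0.99 and 1.08 on the log2 scale. In a bulk piece, fewer cells of a type and less RNA per cell cannot be told apart.

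**Figure D1:**
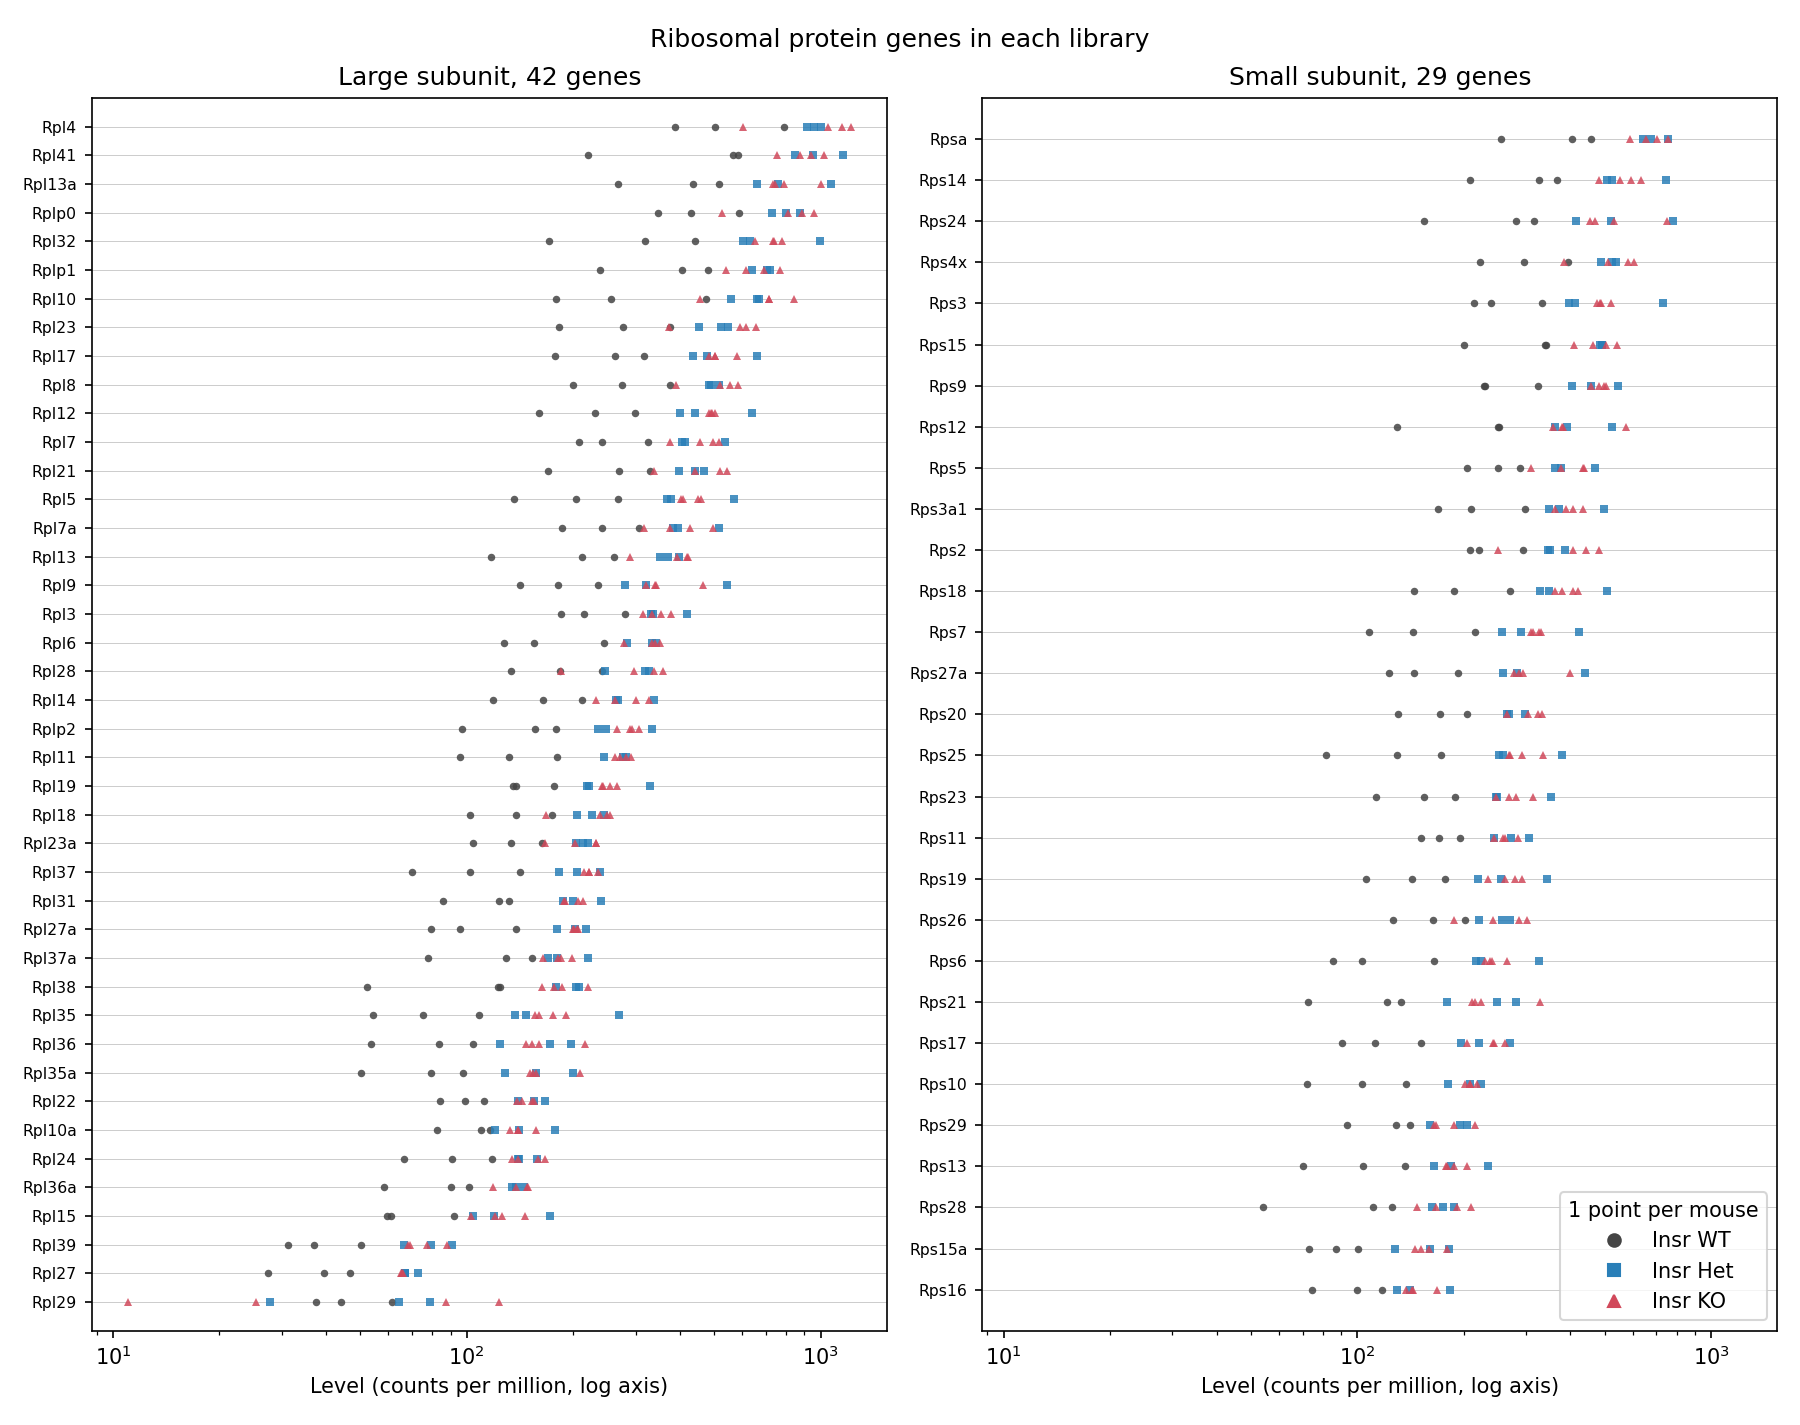
Level of 71 of the 73 well counted ribosomal protein genes (mean of at least 10 CPM) in each library, in CPM on a log axis, large subunit left and small subunit right. Each point is 1 mouse, coloured by Insr genotype. Of the 76 members tested, 62 had every KO library above every WT library, and 72 had every Het library above every WT library. In some rows, such as Rplp0, KO-2124 lies among the WT points. In Rpl29 both the lowest and the highest point are KO.

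Calls of single genes differed between edgeR and DESeq2. With edgeR's quasi-likelihood test and Benjamini-Hochberg adjustment over all genes, 0 of 76 members were called in any of the 3 comparisons, and so were 0% of all genes in each comparison. The smallest adjusted p of a member by edgeR was 0.116 for KO and 0.184 for Het against WT. At an unadjusted p under 0.05, 69 of 76 members were higher in KO than in WT, where 9.61% of all genes were, and 66 of 76 were higher in Het than in WT, where 8.26% were. In KO against Het 0 of 76 members had an unadjusted p under 0.05 in either direction, beside 0.752% of all genes. No member had an unadjusted p under 0.05 in the lower direction in any comparison. Of all 13688 genes tested, 1907 were lower in KO than in WT at that level, 1584 in Het than in WT and 48 in KO than in Het. DESeq2 called 63 of 76 members higher in KO than in WT at an adjusted p under 0.05 (2.14% of all genes), 54 of 74 higher in Het than in WT (1.17%) and 0 of 76 in KO against Het (0%).

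The individual libraries showed the same order. In 62 of 76 members every KO library lay above every WT library, which held for 6.74% of all genes, and in 72 of 76 every Het library did, beside 11.3%. Without KO-2124 the first count was 72, beside 14.2% of all genes, and without WT-2404 it was 62, beside 8.31%. The second count was 72 without WT-2404, beside 13.3% of all genes, and 72 without Het-2066, beside 15.6%. By sign alone, 75 of 76 members were higher in KO than in WT (51.9% of all genes), 73 of 76 in Het than in WT (50.3%) and 29 of 76 in KO than in Het (51.5%). Between KO and Het, 1 of 76 members had ranges that did not overlap, beside 2.46% of all genes. That member was Rpl27, with 65.8, 65.1, 66.0 and 65.6 CPM in the KO and 72.9, 67.1 and 67.0 in the Het libraries, and it was singled out after its values were seen.

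The WT libraries differed among themselves more than the Het or KO libraries did. The mean log2 CPM over the 73 members with a mean of at least 10 CPM was 6.88 for WT-2404, 7.37 for WT-1860 and 7.71 for WT-2067. It was 8.41, 8.11 and 8.17 in the Het libraries and 8.21, 8.25, 8.11 and 8.30 in the KO libraries. All 7 Het and KO libraries thus lay above all WT libraries, and the WT library with the lowest enzyme share had the lowest ribosomal protein level. Without WT-2404 the median log2 fold change of the members was 0.67 in KO against WT, with 54 of 76 higher at an unadjusted p under 0.05 in edgeR's test (4.13% of all genes), and 0.69 in Het against WT, with 52 (4.26%). Without WT-2067, the WT library nearest to the other genotypes, the medians were 1.09 and 1.11, and edgeR called 49 and 33 members at an adjusted p under 0.05 (and 1932 and 1160 of all genes). With the enzyme share of each library as a covariate the medians were 0.59 and 0.57. The part of cell makeup in these differences was not tested further.

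As a share of all gene counts, ribosomal protein reads did not separate the groups. They made up 3.50%, 2.21% and 1.58% of the WT, 2.47%, 1.52% and 2.12% of the Het and 2.24%, 1.71%, 3.29% and 1.64% of the KO libraries. Of the counts outside the enzyme list they made up 4.19%, 5.64% and 6.12% in WT, 9.51%, 7.19% and 8.42% in Het and 8.64%, 8.75%, 9.45% and 8.27% in KO libraries. On this second scale every Het and KO library lay above every WT library.

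**Figure D2:**
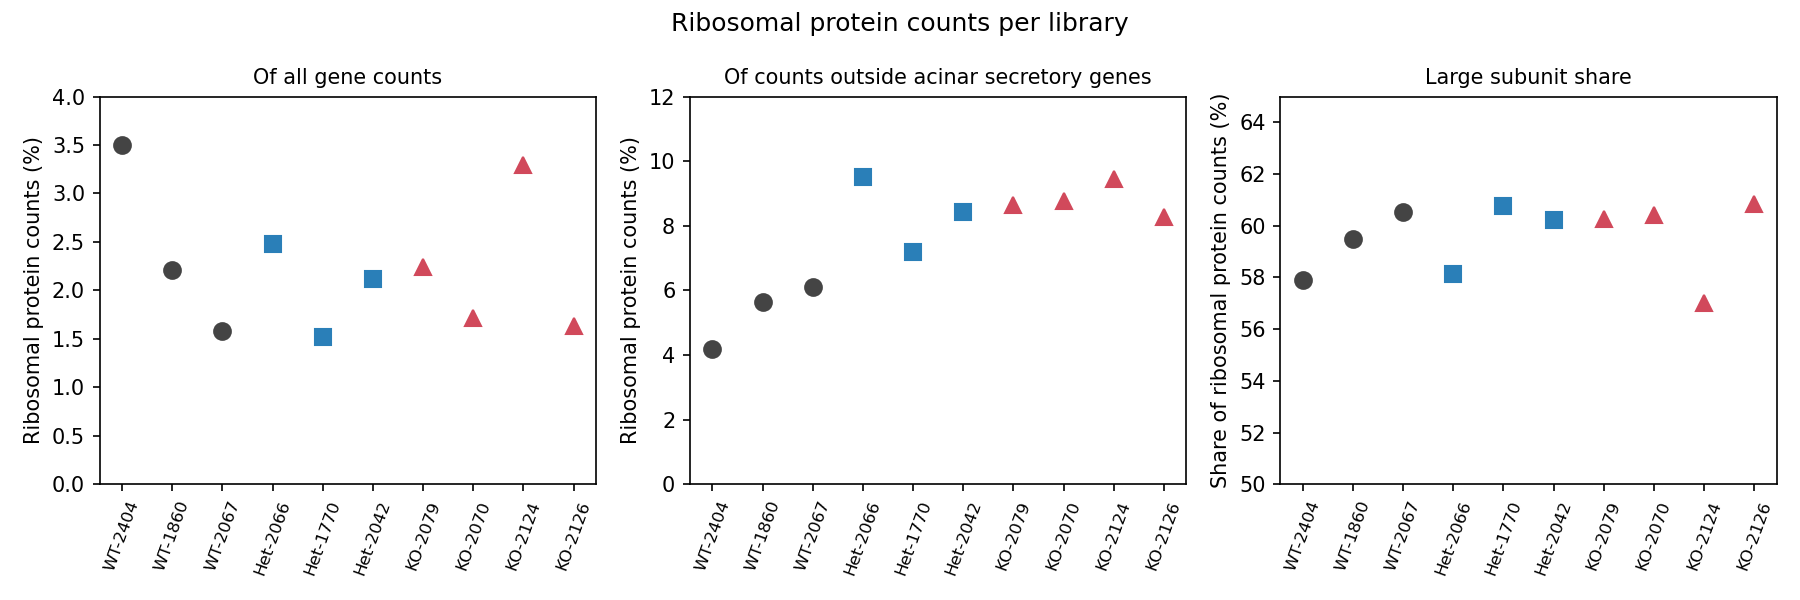
Ribosomal protein counts per library, as a percentage of all gene counts (left) and of the counts outside the acinar enzyme list (middle), and the large subunit's percentage of the ribosomal protein counts (right; its axis starts at 50). Each point is 1 mouse; the groups overlap in the left and right panels, and the 3 WT libraries (4.19% to 6.12%) lie below all others in the middle one.

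Large and small subunit genes did not separate from each other by genotype. The median log2 fold change was 0.84 over 45 large subunit members and 0.89 over 31 small subunit members for KO against WT. It was 0.87 and 0.89 for Het against WT, and -0.01 and -0.02 for KO against Het. Of the large subunit members 39 of 45, and of the small subunit members 30 of 31, were higher in KO than in WT at an unadjusted p under 0.05 by edgeR (9.61% of all genes). In Het against WT the counts were 38 of 45 and 28 of 31 (8.26% of all genes). The large subunit took 57.9%, 59.5% and 60.5% of the ribosomal protein counts in the WT, 58.1%, 60.8% and 60.2% in the Het and 60.3%, 60.4%, 57.02% and 60.8% in the KO libraries. The lowest share of each genotype stood in WT-2404, Het-2066 and KO-2124, and the ranges overlapped. Per library, the mean log2 CPM of the 43 well counted large subunit genes minus that of the 30 small subunit genes was -0.13 ± 0.05 (SD, n = 3) in WT, -0.15 ± 0.07 (SD, n = 3) in Het and -0.16 ± 0.11 (SD, n = 4) in KO libraries. The group means differed by less than the spread within a group.

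**Figure D3:**
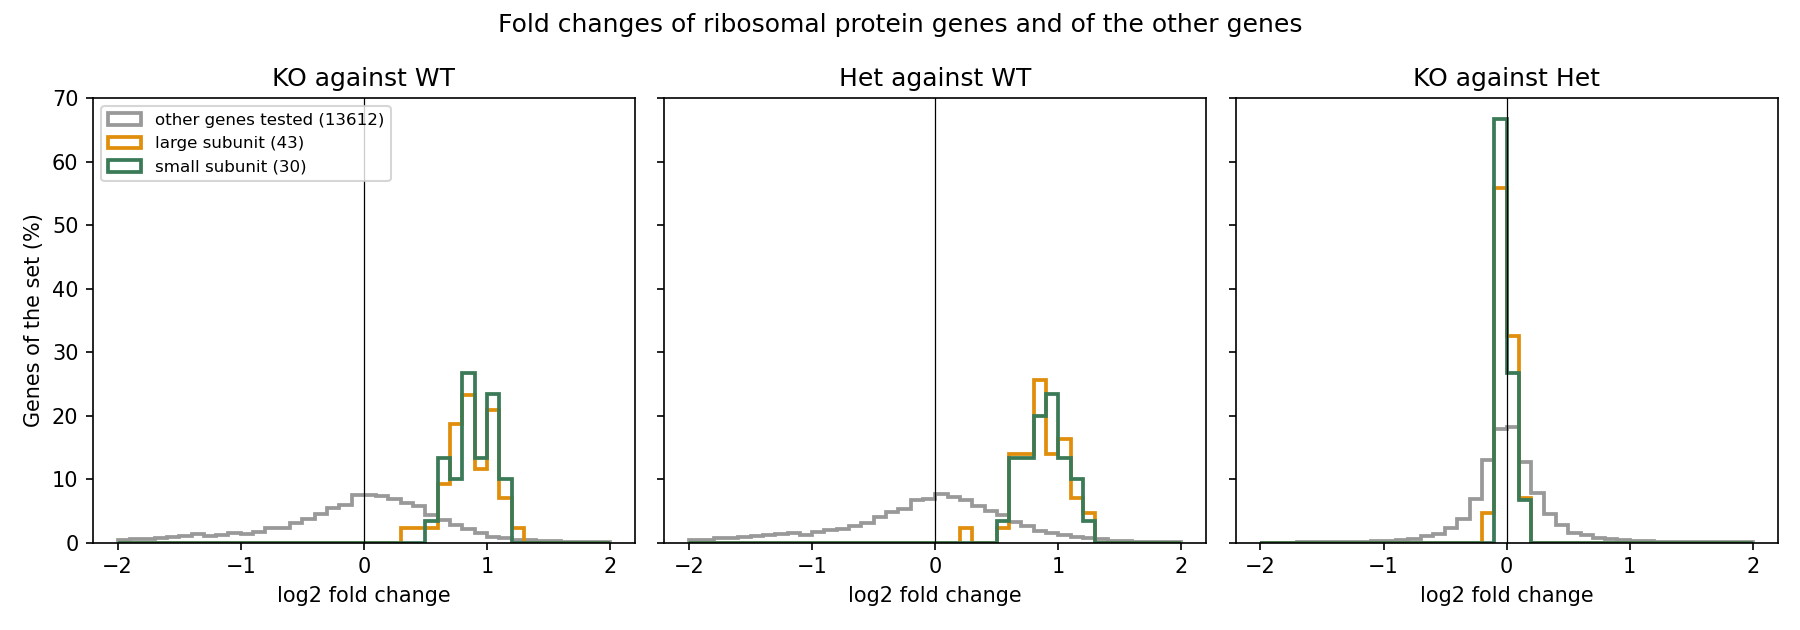
Distribution of log2 fold changes (horizontal axis, drawn from -2 to 2) in the 3 comparisons, as a percentage of the genes of each set, for the 43 large and 30 small subunit genes that are well counted and for the other genes tested. Both subunits sit around 0.9 against WT, away from the other genes, and around 0 in KO against Het.

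A sequence feature that the choice by name did not use was more frequent among the members than among all genes. The RefSeq promoter table (GRCm38.p6) held 57 of the 77 members, each with 250 bases before and 50 after a transcript start. A pyrimidine tract, searched on the transcribed strand as C followed by at least 5 C or T with its first C within 3 bases of the start, stood at the start of 23 of these 57 (40.4%), against 8.53% of the 27025 genes of the table. The starts below show 12 bases before and 18 from the start, with the tract in capitals. The first 3 are of members with large differences between genotypes, Rps27 has a tract yet almost no counts, and Rpl10a and Rpl22, each with both starts that the table gives, are among the members with the smallest differences and have no tract.

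Rps6, chr4:86857350-86857379, minus strand: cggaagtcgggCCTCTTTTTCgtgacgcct

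Rplp2, chr7:141447639-141447668, plus strand: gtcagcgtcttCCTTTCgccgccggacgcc

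Rpl35, chr2:39005114-39005143, minus strand: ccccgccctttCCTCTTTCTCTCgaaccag

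Rps27, chr3:90213631-90213660, minus strand: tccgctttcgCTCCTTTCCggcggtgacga

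Rpl10a, chr17:28328459-28328488, plus strand: gcgcccccccagcggccgcaaactgcagcg

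Rpl10a, chr17:28328553-28328582, plus strand: ctatttgagcgcatgcgcaaagcgctctgc

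Rpl22, chr4:152325714-152325743, plus strand: gccctgggaaaagcaatagctggccgatcg

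Rpl22, chr4:152324424-152324453, plus strand: tgcttctggaatgttccagctcccactgac

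The tract is printed in capitals above for Rps6, Rplp2, Rpl35 and Rps27, and it divided the members little. The starts shown are picked examples: Rpl37, Rpl5 and Rpl11 had no tract, with log2 fold changes of 1.10, 1.09 and 1.03 in KO against WT. The search used the annotated starts alone, so a tract at a start more than 3 bases away was missed. Among well counted members, the 21 with a tract had a KO against WT median of 0.96 (log2 fold change) and the 33 without had 0.86; in Het against WT the medians were 0.94 and 0.87. The ETS core CCGGAAG, on either strand of the 300-base window, was found in 24 of the 57 members (42.1%) and in 9.93% of all genes of the table. The core AAGATGGC of the YY1 motif was found in 5 of 57 (8.77%) and in 3.19% of all genes. The ETS core ends in the letters AAG with which the YY1 core begins, and its opposite strand CTTCCGG begins with pyrimidines, so matches can share letters with each other and with a tract. A match describes the letters and is not a site of binding.

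The stalk of the large subunit, which recruits the elongation factors, is built from Rplp0, Rplp1 and Rplp2. Rplp2 stood at 97.2, 155 and 179 CPM in the WT, 235, 248 and 333 in the Het and 307, 289.9, 294 and 265 in the KO libraries. Every Het and KO library lay above every WT library, with a log2 fold change of 1.01 ± 0.28 (SE) in KO against WT (adjusted p = 0.116 by edgeR). Rplp0, the scaffold of the stalk, stood at 346, 429.8 and 589.6 CPM in the WT, 872, 799 and 727 in the Het and 809, 884, 525 and 955 in the KO libraries. KO-2124 lay within the WT range, and the log2 fold change in KO against WT was 0.80 ± 0.33 (SE; adjusted p = 0.173 by edgeR). Rplp1 had the same log2 fold change, 0.80 ± 0.31 (SE; adjusted p = 0.160 by edgeR), without overlap.

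Rpl5 and Rpl11 bind the 5S RNA and, outside the ribosome, hold back Mdm2, the ligase that degrades p53. Rpl5 stood at 136, 203 and 268 CPM in the WT, 569, 367 and 378 in the Het and 409, 450.4, 403 and 460.1 in the KO libraries. Rpl11 stood at 95.6, 131 and 179 CPM in the WT, 283, 244 and 276 in the Het and 291, 262, 271 and 281 in the KO libraries. Neither gene's Het or KO libraries overlapped with WT. The log2 fold changes in KO against WT were 1.09 ± 0.31 (SE) for Rpl5 and 1.03 ± 0.26 (SE) for Rpl11, both with an adjusted p of 0.116 by edgeR.

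Rpl32 had the largest fold change of the members in both comparisons with WT. It stood at 170.2, 318 and 443 CPM in the WT, 994, 602 and 633 in the Het and 650.5, 734, 778 and 738 in the KO libraries. Its log2 fold change was 1.22 ± 0.36 (SE) for KO against WT (adjusted p = 0.120 by edgeR) and 1.26 ± 0.38 (SE) in Het against WT (adjusted p = 0.184 by edgeR). Rpl35 stood at 54.3, 75.3 and 108 CPM in the WT, 269, 136 and 147 in the Het and 160.3, 156, 191 and 175 in the KO libraries, and Het-2066 was its highest. Rpl10, which sits near the site of peptide bond formation, stood at 179, 256 and 475 CPM in the WT and 714, 714, 455 and 843 in the KO libraries. WT-2067 and KO-2124 overlapped there, and the log2 fold change was 1.17 ± 0.37 (SE; adjusted p = 0.125 by edgeR).

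Rpl41, whose coding sequence of 75 bases is the shortest of the members, had the highest level per coding length, 10544 CPM per kilobase on average over the 10 libraries. Rplp1 followed with 1698 and Rpl32 with 1496, while the median of the well counted members was 562. Counts of a gene come from the whole transcript, which has 544 bases for Rpl41 and 499 for Rplp1, 342 of them coding. Much of the lead of Rpl41 on this scale thus comes from dividing by coding length. Rpl41 stood at 219.5, 566 and 584 CPM in the WT, 1156, 952 and 848 in the Het and 752, 940.4, 1019 and 872 in the KO libraries. The WT library that stood apart was far below the other pair, and WT did not overlap with Het or KO. Rpl38 and Rpl39, a further pair of short large subunit proteins, showed the same order, with 52.2, 123 and 124 CPM of Rpl38 in the WT and 163, 219, 176 and 185 in the KO libraries.

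In the small subunit, Rps6 is the substrate of the S6 kinases that mTOR activates. It stood at 85.6, 103 and 164 CPM in the WT, 325, 224 and 217 in the Het and 239.8, 236, 229 and 265 in the KO libraries. The WT range did not overlap with that of Het or KO. The log2 fold change was 1.04 ± 0.29 (SE) in KO against WT (adjusted p = 0.116 by edgeR). In Het against WT it was 1.12 ± 0.30 (SE; adjusted p = 0.184 by edgeR). Rpsa, which serves in the ribosome and is also known as a laminin receptor, stood at 255, 404 and 457 CPM in the WT, 755, 639.6 and 676 in the Het and 655, 756, 588 and 703 in the KO libraries. Its log2 fold change in KO against WT was 0.86 ± 0.30 (SE; adjusted p = 0.133 by edgeR).

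Rps25, which certain viral and cellular mRNAs need for initiation at internal sites, had the highest fold change of the small subunit. It stood at 81.4, 129 and 172 CPM in the WT, 377, 258 and 251 in the Het and 268, 269, 334 and 292 in the KO libraries, a log2 fold change of 1.19 ± 0.30 (SE) in KO against WT. Rps21 stood at 72.3, 121 and 133 CPM in the WT, 281, 179 and 249 in the Het and 223, 215, 329 and 211 in the KO libraries. Both had an adjusted p of 0.116 by edgeR, and in both KO-2124 was the highest KO library. Rps19, mutated in Diamond-Blackfan anaemia, stood at 106, 143 and 177 CPM in the WT, 344, 219 and 255 in the Het and 233, 279, 292 and 262 in the KO libraries. Rps3, at the entry of the mRNA channel, had a log2 fold change of 0.91 ± 0.31 (SE; adjusted p = 0.129 by edgeR) in KO against WT.

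Rps27a is made as a fusion with ubiquitin, and Fau encodes a small subunit protein fused to a ubiquitin-like one. Rps27a stood at 122, 145 and 192 CPM in the WT, 439, 258 and 283 in the Het and 295, 287, 399 and 276 in the KO libraries. Fau encodes a ribosomal protein but falls outside the naming rule, as does Rack1, a signalling scaffold on the small subunit that the table lists under its older symbol Gnb2l1. Their log2 fold changes in KO against WT were 0.69 ± 0.22 (SE; adjusted p = 0.125 by edgeR) for Fau and 0.80 ± 0.31 (SE; adjusted p = 0.160 by edgeR) for Gnb2l1. Both genes lay above WT without overlap in Het and in KO.

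The smallest differences from WT among well counted members in the KO libraries belonged to Rpl29, Rpl10a and Rpl22. Rpl10a stood at 82.4, 109 and 116 CPM in the WT, 177, 140.0 and 120.2 in the Het and 139, 139, 133 and 157 in the KO libraries, a log2 fold change of 0.47 ± 0.23 (SE) in KO against WT (adjusted p = 0.235 by edgeR). Rpl22, an RNA-binding protein of the large subunit, stood at 83.8, 98.8 and 112 CPM in the WT, 166, 139.7 and 155 in the Het and 138, 153, 155 and 143 in the KO libraries, a log2 fold change of 0.59 ± 0.21 (SE; adjusted p = 0.140 by edgeR). In both genes every Het and KO library lay above every WT library, while Het and KO overlapped. The direction was thus that of the other well counted members at a smaller size. Rpl22 also had the narrowest spread over the 10 libraries, 0.99 on the log2 CPM scale, where the median of the well counted members was 1.63.

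Rpl29 (chr9:106429454-106431568, plus strand, GENCODE annotation of GRCm38) was the exception. It stood at 37.6, 44.0 and 61.6 CPM in the WT, 64.3, 78.9 and 27.8 in the Het and 123, 25.4, 11.0 and 87.4 in the KO libraries. The values varied more than 10-fold within the KO group, and both its lowest and its highest library were KO. The log2 fold change in KO against WT was 0.37 ± 0.68 (SE; adjusted p = 0.765 by edgeR), and it turned to -0.21 without KO-2079. Across the 10 libraries its log2 CPM correlated with the mean of the other members at r = 0.08, where the median of the well counted members was 0.96. These correlations share libraries and scaling and are given as a description.

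Another 4 members were almost uncounted. Rpl26 (chr11:68901583-68906989) had 0 counts in all 10 libraries, which allows up to 3 counts in each, or 0.158 to 0.256 CPM before TMM scaling, and it was the 1 member that did not pass the filter on low counts. Rpl30 (chr15:34440505-34443640) had 0 to 30 counts per library, Rps27 (chr3:90212522-90213651) 1 to 22, and Rpl34 (chr3:130726831-130730398) 10 to 56. Every other member had a mean of 56.1 CPM or more. Of the 50-base stretches of their transcripts, 98.7% of Rps27, 76.4% of Rpl30, 71.3% of Rpl26 and 50.6% of Rpl34 also occur in transcripts of other annotated genes, and the median of the well counted members was 55.5%. Rps27 had the highest share of all members, yet Rpl35 with 95.1% and Rpl5 with 93.8% were well counted, so this share did not separate the uncounted members from the rest. How the counting treated reads that match more than 1 gene is not given in the sources used here, and no fold change is given for these 4. They include the 1 member lower in KO than in WT (Rps27) and the 3 lower in Het than in WT (Rps27, Rpl30 and Rpl34), so all 73 well counted members were higher in both.

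Paralogs of ribosomal proteins, which replace a member in some tissues, fell into those seen and those not seen in this tissue. Rps27l, a p53-responsive paralog of Rps27, stood at 30.8, 41.0 and 65.5 CPM in the WT, 145, 86.8 and 85.5 in the Het and 79.5, 98.6, 94.9 and 103 in the KO libraries. Its log2 fold change in KO against WT was 1.04 ± 0.30 (SE; adjusted p = 0.116 by edgeR). Rpl22l1, the paralog of Rpl22, stood at 22.6, 34.9 and 39.0 CPM in the WT, 87.6, 53.4 and 53.8 in the Het and 50.3, 67.7, 70.2 and 62.3 in the KO libraries, a log2 fold change of 0.96 ± 0.26 (SE) beside the 0.59 of Rpl22. The difference between these 2 genes was not tested. Rpl36al had 0.97 ± 0.27 (SE) and Rpl7l1, which works in ribosome assembly, 0.44 ± 0.18 (SE). All 4 paralogs lay above WT without overlap in both Het and KO.

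Rps4l stood at 7.44, 6.62 and 3.98 CPM in the WT, 3.51, 5.97 and 5.34 in the Het and 5.38, 5.67, 4.15 and 3.23 in the KO libraries, with overlapping groups and a log2 fold change of -0.40 ± 0.29 (SE; adjusted p = 0.413 by edgeR). Its parent Rps4x, the X-linked small subunit gene, stood at 222 to 603 CPM over all libraries. The muscle paralog Rpl3l had 2 counts in Het-2042 and 0 in the other libraries, the testis paralog Rpl10l and Rps27rt had 0 in all 10, and Rpl39l had 1 and 2 counts in 2 WT libraries and 0 elsewhere. These genes were not detectable beyond 3 counts per library at this depth.

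**Figure D4:**
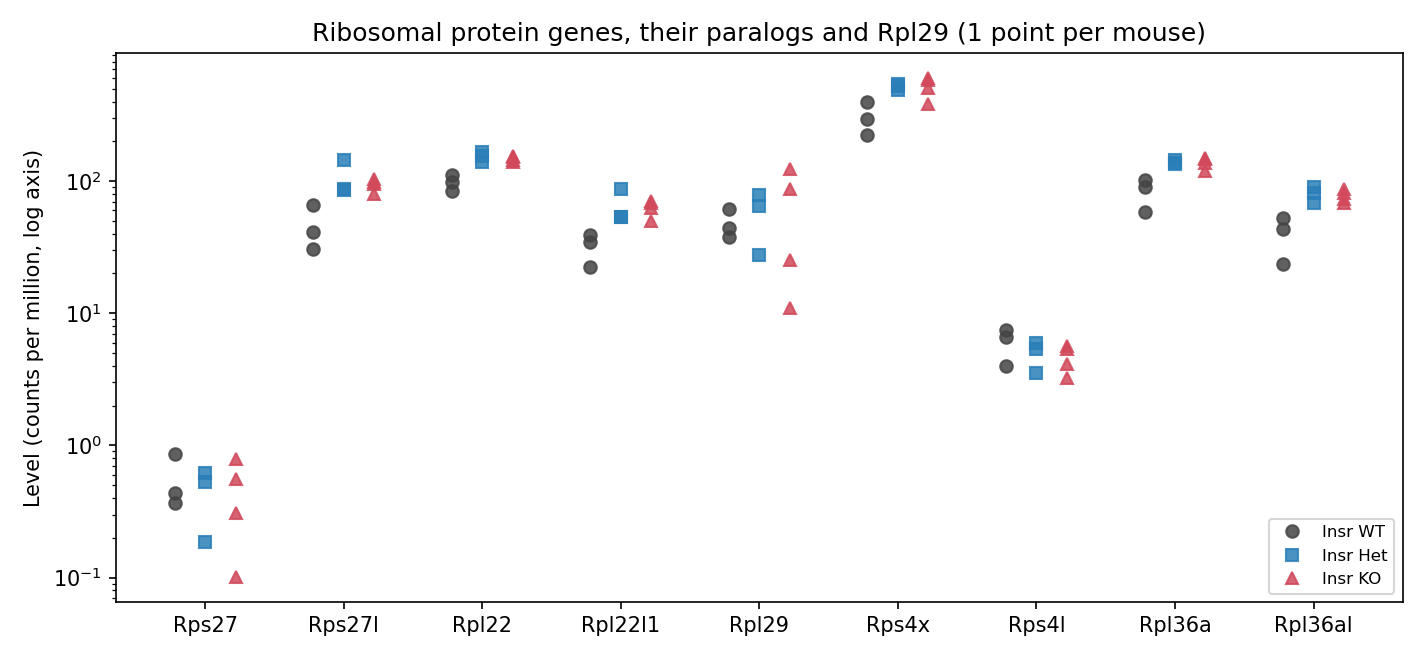
Level in CPM (log axis) of 4 ribosomal protein genes with a paralog in the table, of these paralogs, and of Rpl29, for each mouse by Insr genotype. Rps27l, Rpl22l1 and Rpl36al lie higher in every Het and KO mouse than in any WT mouse, Rps27 stays under 1 CPM, and the KO points of Rpl29 run from 11.0 to 123.

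Other genes of translation showed smaller differences. The list of further TOP and ribosome-associated genes, mostly elongation and initiation factors, had median log2 fold changes of 0.50 for KO and 0.53 for Het against WT, with 10 of 27 genes higher at an unadjusted p under 0.05 by edgeR in each and 0 lower. At that level 9.61% and 8.26% of all genes were higher, and 1907 and 1584 of 13688 genes were lower. Tpt1, a growth-related TOP gene, had the highest fold change of this list in KO against WT, with levels of 478, 749.9 and 1070.2 CPM in the WT, 1929.6, 1458 and 1466 in the Het and 1613, 1819, 1348 and 1839 in the KO libraries. Pabpc1, the poly(A)-binding protein, had the lowest, with levels of 268, 183 and 183 CPM in the WT, 127, 168 and 156 in the Het and 166, 145, 133 and 169 in the KO libraries, and it lay below WT without overlap in both. Thus not every TOP gene was higher.

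The 35 genes of ribosome biogenesis, which make and process ribosomal RNA, had medians of 0.29 and 0.17, with 2 higher and 0 lower at an unadjusted p under 0.05 by edgeR for KO against WT and 2 higher and 1 lower in Het against WT. The share of these 35 that was higher lay below that of all genes in both comparisons (9.61% for KO and 8.26% for Het against WT). The 14 genes of mTOR signalling and TOP control had medians of 0.34 and 0.34, with 3 and 2 genes higher at that level and 0 lower. Larp1, which binds TOP mRNAs, stood at 43.6, 92.3 and 129 CPM in the WT, 137, 207 and 119 in the Het and 142, 186, 84.1 and 225 in the KO libraries, with overlap. The 77 mitochondrial ribosomal protein genes had medians of 0.40 and 0.42, with 30 of 77 higher at an unadjusted p under 0.05 in each comparison and 0 lower. By edgeR 0 genes of these 4 lists passed the adjusted threshold, as among all genes. DESeq2 called 8 and 6 of the TOP and ribosome-associated genes and 4 and 3 of the mitochondrial ribosomal protein genes higher in KO and Het, and 0 of the other lists. Of all genes it called 2.14% and 1.17% higher.

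**Figure D5:**
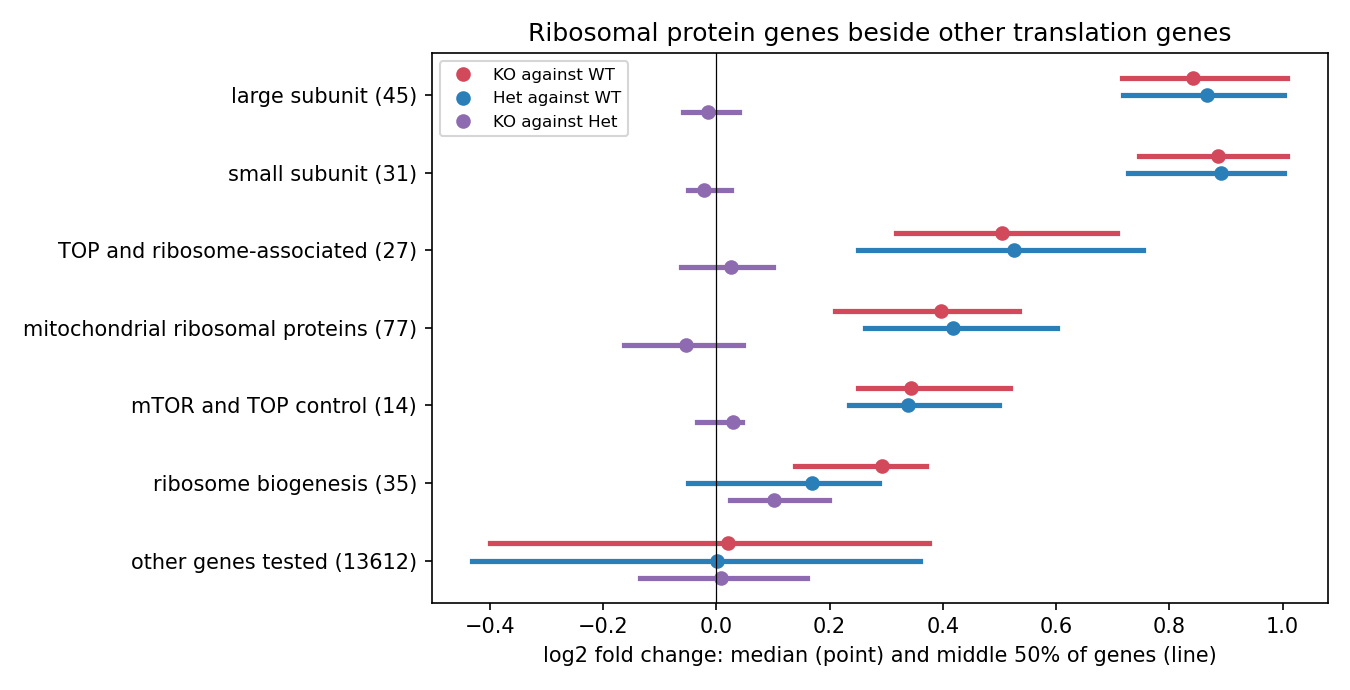
Median log2 fold change (point) and the middle 50% of genes (line) of the large and small subunit members and of other translation gene lists in the 3 comparisons, with the number of genes tested in parentheses. The 2 subunits (0.84 to 0.89 against WT) lie to the right of the other lists, and KO against Het lies between -0.05 and 0.10 for all.

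Other genes with short coding sequences had smaller differences. The median coding length of the members tested was 462 bases. Among other genes, the 247 with up to 300 coding bases had a KO against WT median of 0.12 (log2 fold change), the 548 with 300 to 450 had 0.13, the 766 with 450 to 600 had 0.01 and the 1783 above 3000 had -0.05. Among the 76 members the fold change in KO against WT correlated with coding length at r = 0.03, given as a description across genes of the same libraries.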

How the data were processed

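The members and lists were chosen with earlier results of these data known. The authors deposited raw counts per gene symbol. Per the labels' protocols, frozen tissue was pulverised, RNA came from a column kit and libraries from a stranded mRNA kit. Per the submitters' processing notes, DRAGEN, STAR, Cufflinks and mm10 were used, in roles not given; the counting tool, annotation, strand setting and treatment of shared reads are not given in the sources used here, so members with near-identical pseudogenes are uncertain. A further allele, the same in all groups, and the results of some genes are not reported here.

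The 13688 genes passing filterByExpr (minimum count 10) were fitted with edgeR 4.0.16 (R 4.3.3; TMM factors, glmQLFit and glmQLFTest, robust, two-sided, 1 fit over 10 libraries, no covariates, Benjamini-Hochberg, threshold 0.05). The fit was also run on simulated data. Apart from the genes changed on purpose, the simulated libraries had the same makeup, so that run did not cover differences in enzyme share. Standard errors came from the quasi-F statistic; log2 CPM used a prior count of 2. DESeq2 1.42.0, limma-voom (limma 3.58.1), other scalings and left-out libraries were alternatives. P-values measure the spread between these mice, 1 library each. Genes were named by role, extreme fold change, level, spread or correlation, opposite sign or missing the filter; list genes as the extremes of their list.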

Additional observations from a re-analysis of the deposited data

Results flagged for a closer look

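In the 4 KO libraries, 6 of 35 measures had 1 library whose gap to the nearest other exceeded Dixon's 95% critical value. Among separate measures chance flags about 1 in 20 (1.75). The 35 share libraries, and many are of genes that vary together, so the count of 6 does not measure an excess. Groups of 3 were not tested. KO-2124 was the library flagged in 5 of the 6 measures. The large subunit took 57.02% of its ribosomal protein counts, against 60.3% to 60.8% in the other KO libraries. The SD over members of its deviations from their usual proportions was 0.409 on the log2 scale, against 0.146 to 0.187. Reads outside genes made up 8.71% of its counts, against 2.59% to 3.48%. Rps27a stood at 399 CPM, against 276 to 295 and Rps21 at 329 CPM, against 211 to 223. The sixth measure was Insr, at 22.7 CPM in KO-2079 and 33.3 to 35.5 CPM in the other KO libraries.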

How the results depend on the processing

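By library size alone, the median log2 fold change of the members was -0.18 for KO and -0.28 for Het against WT and 0.12 for KO against Het, and large minus small subunit in Het against WT was -0.10. In that setting KO against WT turned to -0.33 for Rplp0, -0.22 for Rplp1, -0.18 for Rpsa, -0.10 for Rps19, -0.15 for Rps3, -0.63 for Rpl10a, -0.51 for Rpl22, -0.82 for Rpl29, -0.39 for Fau, -0.32 for Gnb2l1, -0.72 for Rpl7l1 and -0.031 for Rpl22l1; this scaling carries no composition factor. Rpl29 was also -0.16 with limma-voom and -0.014 with the enzyme share as a covariate, and -0.21 to 0.72 with 1 library left out. DESeq2 called 63 members for KO and 54 for Het against WT. The enzyme share as a covariate gave large minus small subunit values of -0.13 and -0.17. With 1 library left out, edgeR called 0 to 49 and 0 to 33 members in KO and Het against WT. The most members were called without WT-2067, where many other genes were called as well (counts given above). Large minus small subunit in Het against WT ran from -0.096 to 0.066 with 1 library left out. The causes were not tested. No paired analysis was possible because the groups share no mouse numbers. Adding 7 pseudogene rows to their parents gave member medians of 0.86 for KO and 0.87 for Het against WT. It moved no call, but edgeR had called 0 members without it, so none could be lost. Other genes that share sequence with the members were not added. For the undetected paralogs, values under 3 counts per library are beyond this depth.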

Other observations

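For some members the proportions differed between libraries in a way that did not follow genotype. In both Het-2066 and KO-2124, Rps24, Rpl9, Rpl35 and Rps27a took more, and Rpl28, Rps2, Rpl4 and Rps26 less, of the ribosomal protein signal than on average over the libraries. A deviation is the log2 CPM of a gene minus its mean over all libraries, centred on the median member of each library. The log2 deviations were 0.41 in Het-2066 and 0.58 in KO-2124 for Rps24, 0.41 and 0.42 for Rpl9, -0.50 and -0.68 for Rpl28, and -0.36 and -0.62 for Rps2. In WT-2404 the deviations were -0.41 for Rps24, -0.01 for Rpl9, -0.26 for Rpl35, 0.02 for Rps27a, 0.14 for Rpl28, 0.40 for Rps2, -0.0036 for Rpl4 and 0.26 for Rps26, so this library did not share the pattern. Certain other members did separate WT from the other genotypes on this measure. The deviations of Rpl3 were 0.32, 0.07 and 0.12 in the WT and -0.20 to -0.01 in the Het and KO libraries. Those of Rps25 were -0.40, -0.20 and -0.13 in the WT and -0.05 to 0.35 in the Het and KO libraries. All genes and libraries named here were chosen after their values were seen.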
